A study of Mus musculus with 55 samples.

Results

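The comparison described here is that of Cnih3 knock-out (KO) with wild-type (WT) female mice in metestrus, the stage of the estrous cycle that follows estrus. Its members are the dorsal hippocampus libraries whose labels give this stage, 9 of the 55 libraries of the series, with 5 KO and 4 WT mice and 1 library per mouse. All were adult females on a C57BL/6J background, staged by vaginal cytology. The KO mice were homozygous for a deletion of exon 4 of Cnih3 that is present in every cell of the animal, in a line first made on the C57BL/6N substrain. KO mice were 13.29 to 22.57 weeks old and WT mice 13 to 18.57 weeks old. The mice of the other groups, used below beside metestrus, had other age ranges in weeks. KO and WT mice were at 10.86 to 23.43 and 11.71 to 17.14 in diestrus and at 13 to 14.57 and 12 to 18.71 in proestrus. They were at 13 to 20.71 and 16.29 to 20.29 in estrus and at 18.29 to 23.71 and 12 to 23.71 in males. The study's sample table gives the parents of all 5 KO mice as Cnih3 x B6. It gives the same for only 1 of the 4 WT mice, WT mouse 1, and B6 x B6 for WT mice 2, 3 and 4. Homozygous KO offspring cannot come from a cross to WT B6 mice, and the methods describe matings among carriers of the deletion, so Cnih3 x B6 is used here only as the table's name for the Cnih3 line. For WT mice of this line the methods give matings between heterozygotes. For KO mice they give the same, or occasionally a mating with a homozygote. A figure legend of the paper instead gives 1 heterozygous parent for such WT mice, so the cross of WT mouse 1 is not settled. Genotype and breeding were therefore largely confounded in this stage, and the values below are given with breeding in the model and against WT mouse 1 alone where a call rests on them.

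Cnih3 encodes a cornichon protein, an auxiliary subunit that travels with AMPA-type glutamate receptors from the endoplasmic reticulum to the synapse and slows the closing of their channel. In the hippocampus these receptors carry most fast excitatory transmission, and their number at synapses is adjusted during plasticity. In metestrus of the rodent cycle estradiol is low after its peak in proestrus. The comparison asks what the loss of Cnih3 does to the dorsal hippocampal transcriptome at this stage.

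The deleted exon is shown first because it defines the KO allele. In the GENCODE annotation of GRCm38, Cnih3 lies on the plus strand at chr1:181352628-181460641, and all 4 annotated transcripts contain exon 4, at chr1:181449970-181450082. The exon has 113 bases, 2 more than a whole number of codons, and is coding throughout.
Cnih3 exon 4: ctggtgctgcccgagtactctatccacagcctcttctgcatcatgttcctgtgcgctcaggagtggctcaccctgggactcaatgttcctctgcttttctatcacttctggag
In the annotated transcript with a frame of 160 codons, reading exon 3 directly into exon 5 gives a stop codon 7 codons after the join, so that the open reading frame falls from 160 to 73 codons. The join is printed from the last 15 bases of exon 3 (chr1:181409662-181409676) through exon 5 to the first stop codon (chr1:181454595-181454618), with the stop codon in capitals.
Cnih3 exon 3 to exon 5 join: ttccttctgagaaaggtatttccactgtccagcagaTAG

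The gene count of Cnih3 sums reads of all its exons and so does not by itself test the label. It was 2115, 1609, 1922 and 1916 reads in WT mice 1 to 4 and 1640, 1628, 2038, 1532 and 1455 reads in KO mice 1 to 5. On the normalized scale, log2 CPM, the log-scaled share of a library's reads, the mean was 5.34 ± 0.276 (SD, n = 4) in WT and 5.01 ± 0.274 (SD, n = 5) in KO mice. The groups overlapped, since KO mouse 3 was above WT mice 2, 3 and 4. The log2 fold change, here and below KO minus WT, was -0.32 (SE 0.173) with a false discovery rate (FDR) of 0.578. Counts of the 3 Cnih3 transcripts used here did not exceed 13.706 estimated reads in any of the 9 mice and add no check. The transcript with the frame of 160 codons was not among these 3. The paper examined read alignments within Cnih3 in its animals and reports the loss of exon 4 in the KO mice.

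Across the 16168 genes tested, 4 differed between KO and WT mice in metestrus at an FDR under 0.05, or 0.0247% of the genes, and all 4 were lower in the KO. They were Atf4, Cort, Bex1 and Slc7a3. In each, every KO mouse lay below every WT mouse, WT mouse 1 from the Cnih3 line included, a separation found for 1.06% of all genes in this direction and for 1.05% in the other. The fit was the limma model with 1 mean for each of the 10 groups of the series, and it used all 55 mice to estimate the spread.

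Atf4 encodes a basic leucine zipper transcription factor whose translation increases under amino acid shortage and endoplasmic reticulum stress, and which switches on genes of amino acid synthesis and uptake. It lies at chr15:80255184-80257541. Its expression was 7.25, 7.36, 7.21 and 7.20 log2 CPM in WT mice 1 to 4. In KO mice 1 to 5 it was 6.59, 6.47, 6.66, 6.78 and 6.90 log2 CPM. The WT mice were tightly grouped (SD 0.0752) and the KO mice more widely spread (SD 0.167), with no overlap. Atf4 fell by 0.58 on the log2 scale (SE 0.0893, FDR 0.00052), to 67.0% of the WT level.

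Slc7a3 encodes a plasma membrane carrier of arginine and lysine, and showed the largest fold change of the 4 genes. It lies on the X chromosome at chrX:101079210-101086020. It was sparsely expressed, with 125 to 278 reads in WT mice and 54 or fewer reads in 4 of the 5 KO mice. Expression was 1.68, 2.03, 2.39 and 1.48 log2 CPM in WT and -0.50, 0.13, -0.04, 0.89 and -0.45 log2 CPM in KO mice. KO mouse 4 was the highest of its group and still below every WT mouse. Slc7a3 fell by 1.84 on the log2 scale (SE 0.340, FDR 0.00568), to 27.8% of the WT level.

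Cort encodes cortistatin, a neuropeptide related to somatostatin that is made by a subset of GABAergic interneurons. It lies at chr4:149125034-149126763. Expression was 3.85, 4.07, 3.81 and 3.56 log2 CPM in WT mice 1 to 4 and 2.49, 2.55, 2.21, 3.14 and 2.56 log2 CPM in KO mice 1 to 5. KO mouse 4 was again the closest to the WT range. Cort fell by 1.21 on the log2 scale (SE 0.214, FDR 0.00483), to 43.3% of the WT level. In bulk tissue, fewer Cort-expressing cells and less Cort RNA per cell cannot be told apart.

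Bex1 encodes a small brain-expressed adaptor protein of the X chromosome and lies at chrX:136213972-136215513. Expression was 6.37, 6.56, 6.43 and 6.53 log2 CPM in WT mice 1 to 4 and 5.85, 5.69, 5.80, 5.98 and 6.32 log2 CPM in KO mice 1 to 5. KO mouse 5 was close to WT mouse 1, and the other 4 KO mice lay further below. Bex1 fell by 0.56 on the log2 scale (SE 0.100, FDR 0.00483), to 68.0% of the WT level.

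**Figure D1:**
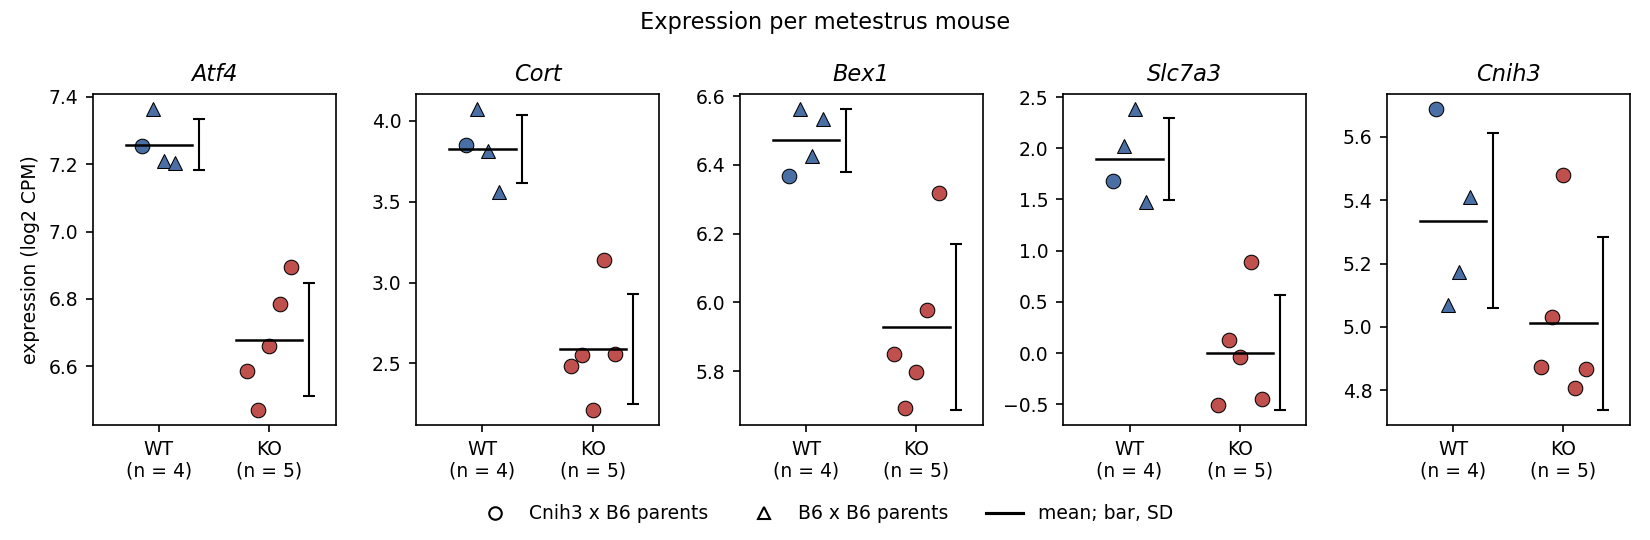
Expression of the 4 differentially expressed genes and of Cnih3 in each metestrus mouse (y axis, log2 CPM; blue, WT; red, KO; circles, Cnih3 x B6 parents; triangles, B6 x B6 parents; line, mean; bar, SD). For Atf4, Cort, Bex1 and Slc7a3 all 5 KO mice lie below all 4 WT mice, whereas the groups overlap for Cnih3; each panel has its own y range.

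The breeding of the mice bears on all 4 calls. With parental breeding added to the model, which WT mice of both kinds in the other groups allow, no gene had an FDR under 0.05. The fold changes were -0.55 (SE 0.115, FDR 0.223) for Atf4, -1.14 (SE 0.268, FDR 0.278) for Cort, -0.59 (SE 0.129, FDR 0.223) for Bex1 and -1.56 (SE 0.413, FDR 0.286) for Slc7a3. The difference between breedings in the same model was -0.03 (SE 0.0843) for Atf4, -0.08 (SE 0.188) for Cort, 0.04 (SE 0.0937) for Bex1 and -0.36 (SE 0.278) for Slc7a3. When the fit was limited to the Cnih3 x B6 breeding, which leaves WT mouse 1 as the sole WT metestrus mouse and assumes that it varies like the other groups, the fold changes were -0.56, -1.21, -0.44 and -1.63 in the same order, all with an FDR of 0.839. Leaving out 1 mouse at a time, Atf4 kept an FDR under 0.05 in 9 of 9 fits, and Cort, Bex1 and Slc7a3 each in 6 of 9.

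**Figure D2:**
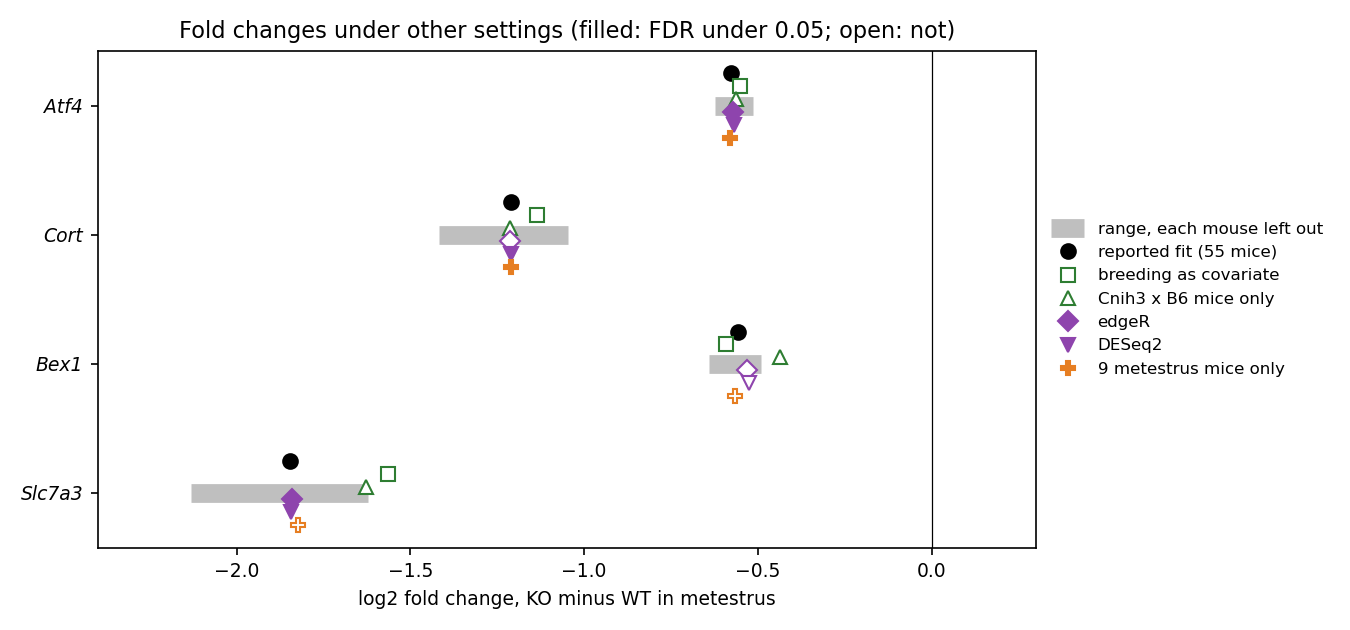
Log2 fold change of the 4 genes (x axis, KO minus WT in metestrus) under the reported fit and 5 other settings (symbols; filled, FDR under 0.05; open, not) with the range when each mouse is left out (grey bars). All values lie below 0, and the open green symbols show that none of the 4 genes passes with breeding as a covariate or with only Cnih3 x B6 mice.

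The KO and WT mice of the other groups are different animals and give values of their own for the same genes. Atf4 was lower in KO mice in diestrus (-0.36), proestrus (-0.44, FDR 0.0357), estrus (-0.48, FDR 0.000949) and males (-0.43, FDR 0.113). Bex1 had log2 fold changes of -0.48, -0.38, -0.58 (FDR 0.000183) and -0.46 in the same order. Cort had values of -1.04, -0.46, -1.39 (FDR 0.000183) and -0.82. Slc7a3 had values of -0.51, -0.65, -1.19 and -1.45, none of which passed the test. The sign was thus the same in 4 of 4 other comparisons for each gene. Breeding was unbalanced there too, but less in males and diestrus, where 4 of 5 and 4 of 6 WT mice came from Cnih3 x B6 parents, compared with 1 of 5 in proestrus and 1 of 7 in estrus. In diestrus, 2 of 6 KO mice were below the lowest WT mouse for Atf4, 1 of 6 for Slc7a3, 3 of 6 for Cort and 6 of 6 for Bex1, a full separation that 0.0619% of all genes showed. The lowest WT diestrus mice for Atf4 and Slc7a3 were of the Cnih3 line and lay within the KO range. In males, 7 of 7 KO mice were below the lowest WT mouse for Atf4 and Slc7a3, 6 of 7 for Bex1 and 4 of 7 for Cort, and 0.111% of all genes were fully separated in this direction.

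**Figure D3:**
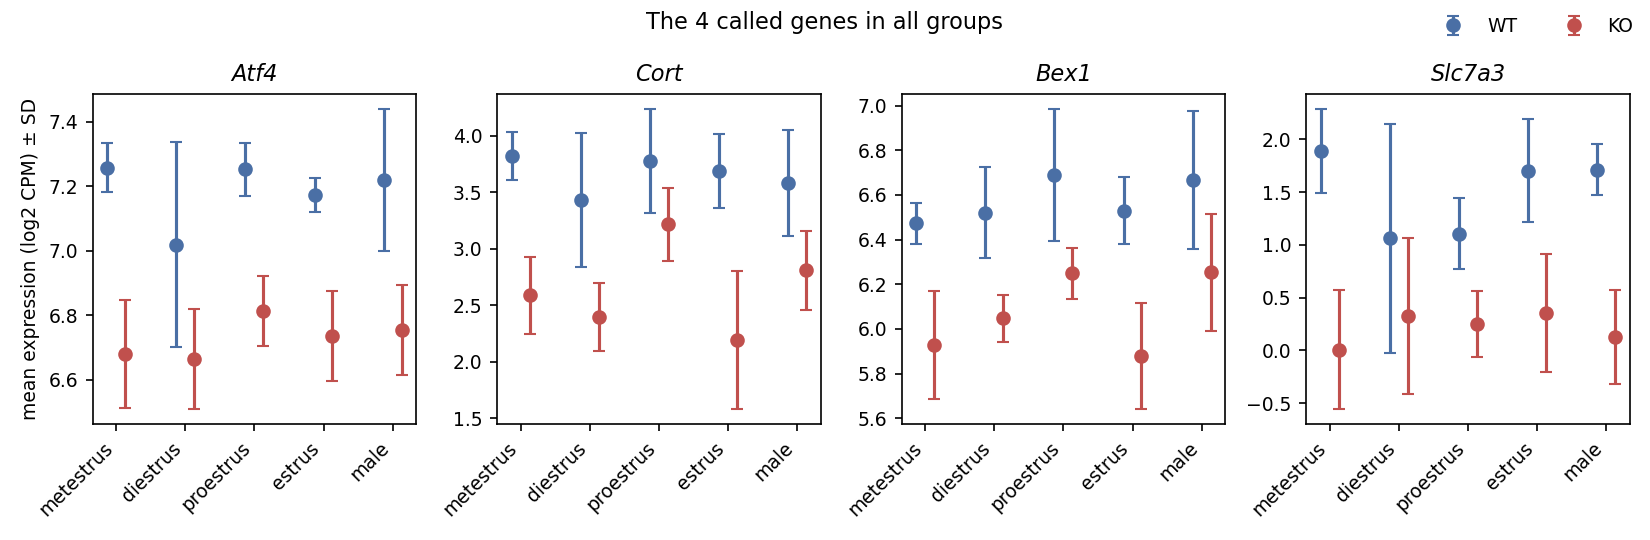
Mean expression (y axis, log2 CPM) with SD of the 4 differentially expressed genes in WT (blue) and KO (red) mice of each stage and in males. The KO mean lies below the WT mean in all 5 comparisons of each gene, and the SD bars overlap in some of the other groups, as for Atf4 and Slc7a3 in diestrus and Cort in proestrus.

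No gene had a genotype effect in metestrus that differed from its mean effect in diestrus, proestrus and estrus at an FDR under 0.05 by the interaction contrast of the same limma model. At an unadjusted p under 0.05 there were 968 genes, or 5.99%. The edgeR and DESeq2 tests of this difference also called no gene, with 221 and 248 genes at an unadjusted p under 0.05. For Slc7a3 the genotype effect was 1.06 lower in metestrus on the log2 scale than in the other stages (SE 0.395, unadjusted p = 0.00956). By the same contrast the difference was -0.15 for Atf4, -0.24 for Cort and -0.07 for Bex1 (unadjusted p = 0.149, 0.330 and 0.521). All 4 genes were called on their metestrus values, which also enter this contrast, so these differences are not independent of the choice. For Cnih3 the difference was -0.00 with an unadjusted p of 0.998. Nothing was therefore called particular to metestrus.

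Below the threshold, the 10 genes of smallest p that were lower in the KO were Aim2, Itpka, Fam8a1, Tceal8, Zfas1, Eif4ebp1, Snrpd1, Nudt3, Cox6a2 and Gm9967, with FDRs of 0.101 to 0.189. All 10 also had a negative log2 fold change in diestrus and in estrus, and 9 of 10 in proestrus and in males. Of all genes, 61.0%, 65.4%, 39.5% and 63.1% had the same sign as in metestrus in diestrus, estrus, proestrus and males. Among the 1457 genes with an unadjusted p under 0.05 in metestrus the shares were 74.1%, 80%, 37.4% and 72.7%. Aim2, a cytosolic sensor of double-stranded DNA, was at 1.32, 2.08, 1.84 and 1.82 log2 CPM in WT mice 1 to 4 and at 1.09, 0.76, 1.22, 0.57 and -0.01 log2 CPM in KO mice 1 to 5. Its groups did not overlap, its lowest WT value was that of WT mouse 1 from the Cnih3 line, and its log2 fold change was -1.05 (SE 0.233, FDR 0.101), or -0.73 with breeding in the model. In proestrus, estrus and males the same gene was lower in KO mice at FDRs of 0.0230, 0.000183 and 0.00381. Aim2 lies at chr1:173350879-173466040, on the chromosome of Cnih3 and outside the 5 Mb examined below. Whether its values follow from linkage to the KO allele was not tested. Itpka, which phosphorylates inositol trisphosphate in dendritic spines, differed by -0.62 on the log2 scale (SE 0.140, FDR 0.101). Zfas1, a non-coding host of small nucleolar RNAs, had a value of -0.61 (FDR 0.155), and Eif4ebp1, a repressor of cap-dependent translation, -0.57 (FDR 0.162). Tceal8, another X-linked gene of the Bex and Tceal cluster, had a value of -0.33 (FDR 0.155) with no overlap between groups.

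The 10 genes of smallest p that were higher in the KO were Gm3248, Cyb5rl, Zfp612, Sash3, Rnf135, Gca, 9230009I02Rik, Arhgap25, Fhit and Cpxm2, with FDRs of 0.0704 to 0.201. Gm3248, a predicted gene on chromosome 14, came closest to the threshold. It had 80, 86, 130 and 83 reads in WT mice 1 to 4 and 281, 167, 111, 217 and 244 reads in KO mice 1 to 5, and a log2 fold change of 0.99 (SE 0.214). Its groups touched, since KO mouse 3 was slightly below WT mouse 3 on the log2 scale. Zfp612, a zinc finger protein, was higher in every KO than in every WT mouse, a difference of 0.31 on the log2 scale (SE 0.0756, FDR 0.162). All 10 had the same sign in estrus, 9 of 10 in males, 7 of 10 in diestrus and 6 of 10 in proestrus.

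The gene lists were read against the whole table, in which the median log2 fold change was -0.00277 and 9.01% of genes had an unadjusted p under 0.05, 4.16% higher and 4.86% lower in the KO. Of the 4 pore-forming AMPA receptor subunits, the proteins that Cnih3 assists, none passed the test. Gria1 was at 9.37, 9.15, 9.51 and 9.38 log2 CPM in WT mice 1 to 4 and at 9.40, 9.50, 9.29, 9.35 and 9.21 log2 CPM in KO mice 1 to 5, so that the groups overlapped fully. The log2 fold changes were 0.02 (SE 0.0967) for Gria1, -0.11 (SE 0.127) for Gria2, -0.10 (SE 0.105) for Gria3 and -0.01 (SE 0.133) for Gria4, with signs that depended on the setting.

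Of the other auxiliary and assembly proteins of AMPA receptors 25 of 26 were tested, with a median log2 fold change of -0.03, and 3 were lower and none higher at an unadjusted p under 0.05. These were Gsg1l (-0.43), an auxiliary subunit that dampens receptor currents, with every KO mouse below every WT mouse, Cacng7 (-0.37), a transmembrane AMPA receptor regulatory protein, and Prrt1 (-0.27), a receptor-associated membrane protein. None passed at an FDR under 0.05. Among the other ionotropic glutamate receptors, 15 of 16 tested, 1 was lower at this level, the NMDA receptor subunit Grin3a (-0.39). Metabotropic glutamate receptors (7 of 7 tested, median 0.01) held none, and the 2 of smallest p were Grm5 (-0.18) and Grm2 (-0.14). Postsynaptic scaffolds and CaMKII (24 of 24, median -0.01) held Dlg3 (-0.31), a scaffold of NMDA receptors, and GABA-A receptor subunits (12 of 12, median -0.07) held Gabrd (-0.33), the subunit of extrasynaptic receptors sensitive to neurosteroids.

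Atf4 itself was set beside the genes it is known to control, of which 9 of 10 on the list, Atf4 included, were tested, with a median log2 fold change of -0.06. Besides Atf4, 2 members were lower at an unadjusted p under 0.05 and none was higher. Atf5, a related transcription factor, had 3.35, 2.88, 2.47 and 2.99 log2 CPM in WT mice 1 to 4 and 2.29, 1.24, 1.97, 2.39 and 2.85 log2 CPM in KO mice 1 to 5, a difference of -0.68 on the log2 scale (SE 0.176, FDR 0.199). Chac1, which degrades glutathione, was lower in every KO than in every WT mouse, a difference of -0.44 on the log2 scale (SE 0.158, FDR 0.388). The other 6 members lay between -0.11 and 0.29, among them Asns at -0.11 and Slc7a11 at 0.29. 

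The response element through which Atf4 and C/EBP factors are known to act has the core TGATGNAA. It was searched on both strands of the 250 bases before the start in the RefSeq promoters of GRCm38.p6, and 3.45% of the 32851 promoters held it. All 10 genes of the Atf4 list matched this table and 3 held the core. Of the 4 called genes, Atf4, Cort and Bex1 matched and none held it, and Slc7a3 had no entry. The matches are printed to show where they lie, on the strand of each gene, with the core or its reverse complement in capitals and 10 bases on each side.
Asns, chr6:7693215-7693242, minus strand: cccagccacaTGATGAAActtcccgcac
Chac1, chr2:119351039-119351066, plus strand: ttccctgccgTTGCATCActcctgccag
Slc7a11, chr3:50443662-50443689, minus strand: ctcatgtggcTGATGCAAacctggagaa
Slc7a11, chr3:50443643-50443670, minus strand: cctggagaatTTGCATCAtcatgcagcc
The pair of Slc7a11 matches overlaps in the printed stretches but not in the cores. These matches are a description of the letters only, and the 3 genes had log2 fold changes of both signs.

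The splicing factors and snRNP core proteins, which assemble and regulate the spliceosome, were mostly at negative values. All 24 were tested, the median log2 fold change was -0.11, 20 had negative and 4 positive values, and 6 were lower and none higher at an unadjusted p under 0.05, beside 4.86% of all genes. The 6 were Snrpc (-0.44), Snrpd1 (-0.40), Snrpd3 (-0.27), Srsf6 (-0.43), Srsf1 (-0.24) and Hnrnpdl (-0.19), with FDRs of 0.162 to 0.469. Snrpd3, a core protein of the spliceosomal snRNPs, was at 7.73, 7.71, 7.67 and 7.63 log2 CPM in WT mice 1 to 4 and at 7.38, 7.35, 7.40, 7.42 and 7.53 log2 CPM in KO mice 1 to 5. Its groups did not overlap, nor did those of Snrpd1. Both genes had the same sign in 4 of 4 other comparisons. The list was chosen with earlier results of these mice known, so this is not independent evidence of its direction.

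Among hormone-related genes, the glucocorticoid-responsive list (12 of 12 tested, median 0.05) held Sgk1, a kinase induced by corticosteroids. Sgk1 was at 7.07, 7.20, 7.26 and 7.26 log2 CPM in WT mice 1 to 4 and at 8.18, 7.39, 7.85, 7.84 and 7.61 log2 CPM in KO mice 1 to 5. All KO mice were above all WT mice, a difference of 0.65 on the log2 scale (SE 0.199, FDR 0.291). Steroid receptors and neurosteroid enzymes (14 of 16, median -0.01) held Esr1 (0.51), the estrogen receptor alpha gene, and, lower, Pgr (-0.26), the progesterone receptor gene, and Star (-0.35), which carries cholesterol into mitochondria. Opioid receptors and peptide precursors (5 of 8, median 0.01) held Oprl1 (0.31), the nociceptin receptor gene, while Oprm1, Oprd1 and Oprk1 were too sparse to be tested, with 4 to 64 reads in any metestrus mouse. None of these passed at an FDR under 0.05.

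Immediate early genes (17 of 17, median 0.06) held Egr2 (1.16) and Dusp1 (-0.41). Egr2 was at -0.87 log2 CPM in WT mouse 1 and at 1.35 to 2.03 log2 CPM in WT mice 2 to 4. In KO mice it was at 1.46 to 3.18 log2 CPM, so that the groups overlapped. Circadian clock genes (15 of 15, median 0.04) held no gene at an unadjusted p under 0.05. Their smallest p belonged to Arntl (0.20) and Per2 (0.15). Endoplasmic reticulum chaperones (12 of 12, median 0.11) also held none, with the smallest p for Hspa5 (0.25) and Pdia4 (0.17). Heat shock genes (6 of 7, median 0.08) held none either, with the smallest p for Hspa1b (-0.41) and Dnajb1 (0.16).

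Genes that differ between C57BL/6 substrains were listed because the KO line began on C57BL/6N, and 3 of 5 were tested. Wdfy1, which has a known expression difference between substrains, was at 5.68, 4.43, 4.27 and 4.18 log2 CPM in WT mice 1 to 4 and at 6.51, 4.46, 6.50, 6.33 and 5.70 log2 CPM in KO mice 1 to 5. The WT mouse of the Cnih3 line lay far above the 3 from B6 x B6 parents, and KO mouse 2 lay with the latter. The log2 fold change was 1.53 (SE 0.461, FDR 0.282), and with breeding in the model it was 0.26 (SE 0.515) beside a difference between breedings of 1.6 (SE 0.373, unadjusted p = 7.64e-05). Fgfbp3, a secreted carrier of fibroblast growth factors, had a value of -0.76 (FDR 0.419), and -1.13 with breeding in the model.

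The genes around Cnih3 were examined because the KO allele carries flanking sequence of the strain in which it was made. Within 5 Mb of Cnih3, 78 genes were tested, Cnih3 itself included, and none had an FDR under 0.05 in metestrus. Aim2, described above, lies on the same chromosome outside this window and is not among the 78. Of these, 1 was higher in every KO mouse, Bpnt1 (0.13), an enzyme of phosphate and inositol metabolism, and 2 were lower in every KO mouse, the predicted genes Gm37313 (-0.47) and Gm37069 (-0.51), beside 1.05% and 1.06% of all genes. At an unadjusted p under 0.05, 3 of the 78 were higher and 8 lower, beside 4.16% and 4.86% of all genes.

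The tissue was checked against cell type markers. Markers of CA1 (6 of 6 tested), CA2 (6 of 6) and CA3 pyramidal cells (7 of 8) and of dentate granule cells (9 of 9) were present in every mouse. The summed CA1 level was 326 to 426 CPM in WT and 354 to 395 CPM in KO mice. For dentate markers it was 390 to 462 and 367 to 403 CPM. For CA2 it was 315 to 366 and 241 to 429 CPM, and for CA3 440 to 513 and 363 to 531 CPM. KO mouse 2 was the lowest of all mice for both CA2 and CA3. The median log2 fold changes were 0.04, 0.03, 0.10 and -0.11 for CA1, CA2, CA3 and dentate markers. At an unadjusted p under 0.05 these lists held the dentate genes Trpc6 (-0.52), a cation channel whose groups did not overlap, and C1ql2 (-0.57), a synaptic organizer. They also held the CA2 marker Pcp4 (-0.27). Of the 9 dentate markers 8 had negative values and 1 a positive value. Every KO mouse was below every WT mouse for 2 of the 9, beside 1.06% of all genes. For CA1 the smallest p belonged to Man1a (-0.17) and Mpped1 (0.05), and for CA3 to Cpne4 (0.10) and Bok (-0.20).

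Cort was 1 of the interneuron markers. All 13 were tested, with a median of -0.12, and besides Cort there were 2 lower and 1 higher at an unadjusted p under 0.05. Npy, a neuropeptide of several interneuron classes, was at 7.24, 7.34, 7.23 and 7.10 log2 CPM in WT mice 1 to 4 and at 6.57, 6.53, 6.30, 6.98 and 6.73 log2 CPM in KO mice 1 to 5, without overlap, for a difference of -0.59 on the log2 scale (SE 0.172, FDR 0.265). Tac1, the precursor of substance P, had a value of -0.44 (FDR 0.415). Gad2, an enzyme of GABA synthesis made by all these cells, had a value of 0.16 (FDR 0.532). The summed level of the list, to which abundant genes add most, was 1301 to 1373 CPM in WT and 1154 to 1385 CPM in KO mice. The mean log2 CPM over the 13 genes, Cort included, did not overlap. It was 5.43 to 5.48 in WT and 5.15 to 5.37 in KO mice. Cort, called on these same values, and Npy, whose groups also did not overlap, both enter this mean. Its separation is therefore not separate evidence on the list as a whole.

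Several lists of other cells and compartments had medians away from 0, with summed levels that overlapped between the groups and no member with an FDR under 0.05. All 8 endothelial markers had negative values (median -0.65), from -0.91 to -0.49. Flt1 (-0.91), Tek (-0.73), Slco1a4 (-0.65) and Ly6c1 (-0.49) had an unadjusted p under 0.05. The summed levels were 28.5 to 44.8 CPM in WT and 14.6 to 39.5 CPM in KO mice. All 13 mitochondrially encoded mRNAs were negative (median -0.51), among them mt-Nd4 (-0.52), mt-Nd2 (-0.56) and mt-Co2 (-0.60), and summed to 17942 to 25761 CPM in WT and 11109 to 22359 CPM in KO mice, of which only KO mice 3 and 5 lay below the WT range. Of the 8 nuclear long non-coding RNAs 7 were negative (median -0.51), with Xist (-0.87) at an unadjusted p under 0.05. Their summed level was 3281 to 3721 CPM in WT mice, while KO mice 1 and 5 had 1690 and 1602 CPM and KO mice 2, 3 and 4 had 3553, 2715 and 3698 CPM. RNA was purified from the supernatant of a centrifuged detergent lysate.

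Blood markers all had positive values (5 of 5 tested, median 0.62), with Hba-a1 (0.62), Hba-a2 (0.61), Hbb-bs (0.61), Hbb-bt (0.66) and Alas2 (0.88) all at an unadjusted p under 0.05 and a summed level of 159 to 319 CPM in WT and 272 to 486 CPM in KO mice. Choroid plexus markers (11 of 11, median 0.24, with Clic6 at 1.14 and Folr1 at 1.84 of smallest p) set KO mouse 2 apart, with a summed level of 1403 CPM beside 34.7 to 95.5 CPM in the other 8 mice. Meningeal fibroblast markers (6 of 8, median 0.36, Slc6a13 at 0.81 and Col1a2 at 0.84) were also highest in that mouse. Pituitary markers (3 of 7, median 0.86, Pomc at 1.11 and Prl at 0.86) summed to 9.72 to 223 CPM in WT and 13.8 to 217 CPM in KO mice. Without KO mouse 2, 6 genes were called, the 4 named above among them. Without KO mice 1 and 5, which was tried after seeing these levels, Atf4, Bex1 and Cort were called and Slc7a3 had a log2 fold change of -1.64 beside -1.84 with all mice, and an FDR of 0.163. Beyond these values the part of dissection and lysis in the 4 calls was not tested.

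**Figure D4:**
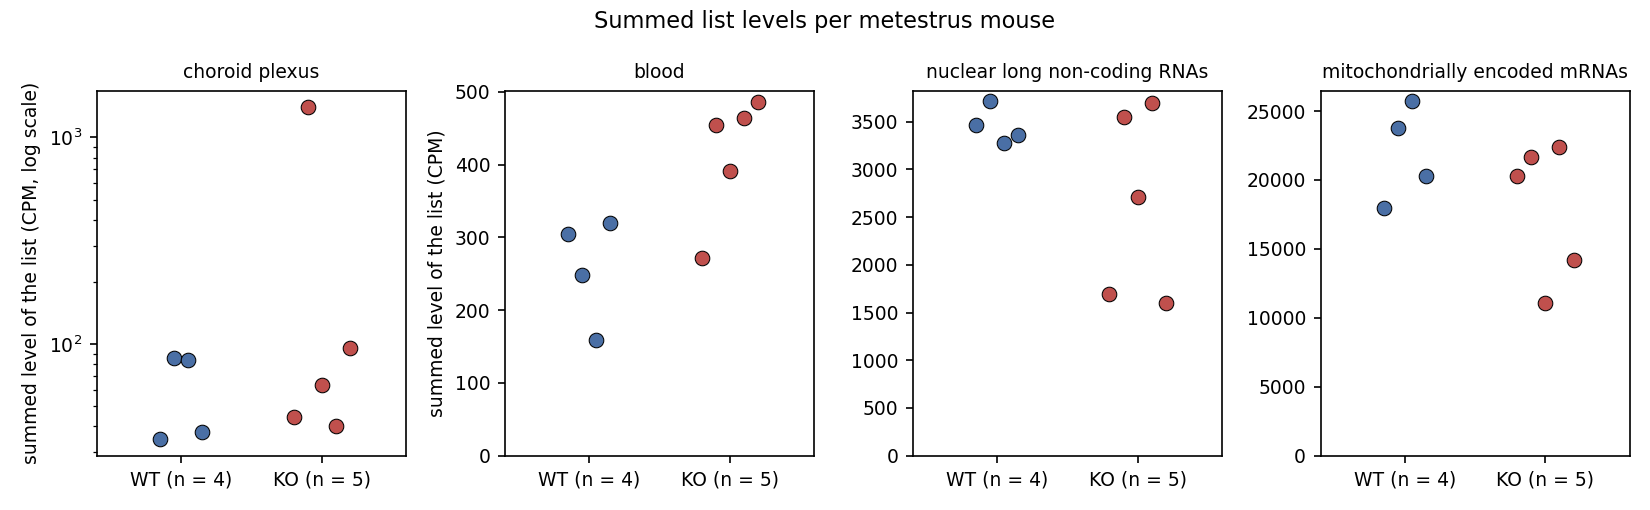
Summed level (y axis, CPM) of 4 lists in each WT (blue, n = 4) and KO (red, n = 5) metestrus mouse, with a log axis for the choroid plexus. KO mouse 2 reaches 1403 CPM of choroid plexus markers, and KO mice 1 and 5 have 1690 and 1602 CPM of nuclear long non-coding RNAs beside 3281 CPM or more in all WT mice.

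The other cell types had smaller medians. Mature oligodendrocyte markers (15 of 15 tested, median 0.11) all had positive values, from 0.03 to 0.29. They held Cnp (0.25), an enzyme of myelin, at an unadjusted p under 0.05. Their summed levels overlapped, at 4592 to 6835 CPM in WT and 5349 to 6969 CPM in KO mice. The thalamus list (8 of 8, median 0.13) held Prkcd (0.37), higher in every KO mouse, and Ramp3 (-0.48). Of the astrocyte markers 9 had positive values and 1 a negative value. Oligodendrocyte precursor (9 of 9, median 0.06, Olig2 at -0.32 and Gpr17 at 0.22), astrocyte (10 of 10, median 0.07, Aqp4 at 0.20 and Gjb6 at 0.16), microglia (10 of 10, median 0.09, Csf1r at 0.11) and neocortex markers (6 of 6, median -0.03, Rorb at 0.27 and Cux2 at 0.26) held none.

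**Figure D5:**
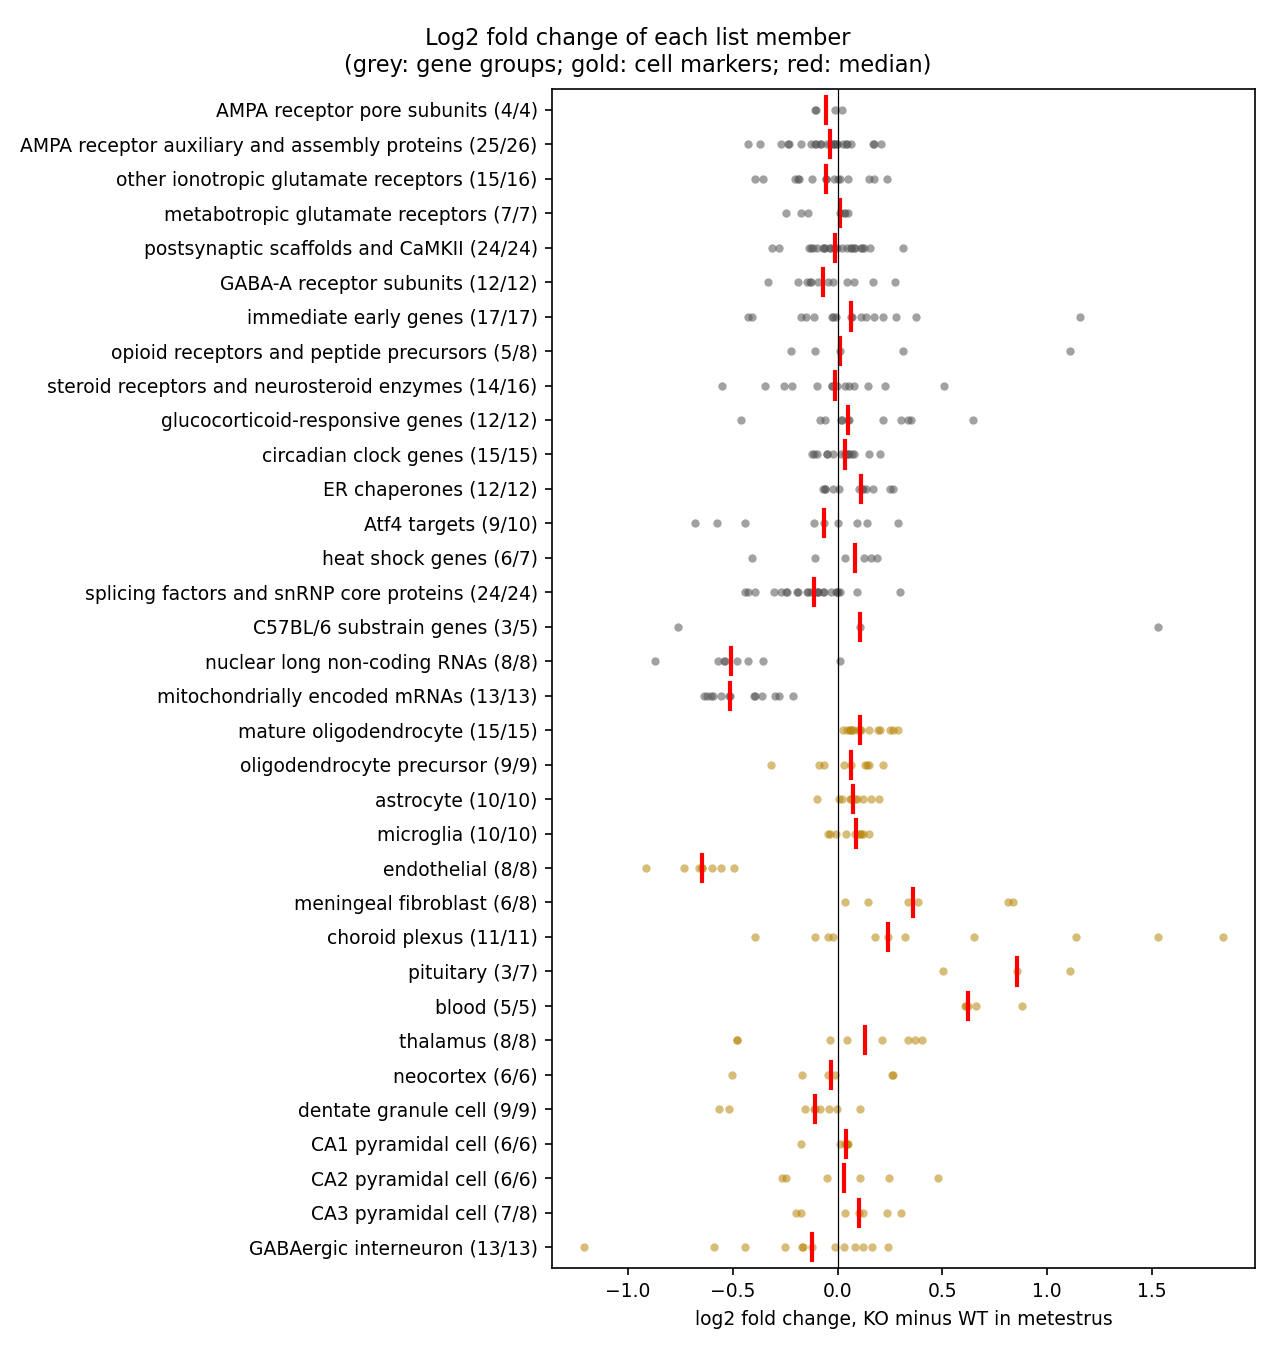
Log2 fold change (x axis, KO minus WT in metestrus) of every tested member of each list (points; grey, gene groups; gold, cell markers) with the list's median (red) and the number tested of those listed. Endothelial markers, mitochondrially encoded mRNAs and nuclear long non-coding RNAs lie to the left with medians of -0.65, -0.51 and -0.51, and blood markers to the right with a median of 0.62.

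Libraries held 43052058 to 56424634 reads in WT and 49028581 to 61472649 reads in KO mice. The total count, age, the share of mitochondrially encoded mRNAs and the share of the 100 most abundant genes showed no difference that passed two-sided exact permutation tests (adjusted p = 0.444, 0.595, 0.444 and 0.595), for which the smallest possible p is 0.00794. Correlations between the log2 CPM of 2 metestrus libraries were 0.972 to 0.989, and no pair of libraries was identical.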

How the data were processed

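Conditions and ages were taken from the labels, and parental breeding from the study's sample table. Reads were aligned to GRCm38 with STAR 2.7.9a, and the authors deposited raw gene counts made with featureCounts 2.0.3, with no strand information in the cDNA kit, so antisense partners cannot be told apart. They also deposited estimated counts per transcript from Salmon 1.5.2 (expected counts, used here for 3 Cnih3 transcripts only) and log2 CPM of their tested genes. The latter served as a check, and differed from the values computed here by at most 5e-14 over 16164 genes. CPM tables were not used, and 1 column without a sample was left out.

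Of 55487 genes, genes over 1 CPM in at least 10 of 55 libraries entered the fit, without 5 ribosomal genes, which gave 16168 (16156 with a GENCODE position). Counts were scaled by TMM (edgeR 4.0.16), weighted by voomWithQualityWeights and fitted with limma 3.58.1 in R 4.3.3, with 1 mean per group, no covariate and Benjamini-Hochberg FDR under 0.05 over all genes. Total counts per metestrus library are given in the report and set the precision of sparse genes. Each library is 1 mouse. The steps were tested on simulated data. Alternatives were DESeq2 1.42.0, the quasi-likelihood test of edgeR, voom without weights, upper quartile factors, no filter on low counts, age or breeding as covariate, subsets of mice and each mouse left out.

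Named genes were Cnih3, all genes called, the 10 genes of smallest p in each direction below the threshold, non-overlapping genes within 5 Mb of Cnih3, the Gria genes, and of each list the members with an unadjusted p under 0.05 or else the 2 of smallest p. A gene that this rule also named is not reported here. The members and lists were chosen with earlier results of these data known. Asns and Slc7a11 were named for their promoter sequence. Sequences are from GENCODE transcripts and RefSeq promoters.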

Additional observations from a re-analysis of the deposited data

Results flagged for a closer look

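A mouse was counted as standing apart by its distance to the nearest of its group, divided by the range of that group. This ratio had to exceed Dixon's critical value, which chance gives in about 1 of 20 groups. Of 278 groups of values examined, 15 had such a mouse, or 5.4%, which is close to that rate. Among summed levels they were the choroid plexus markers in KO mice, where the highest value was 1403 CPM and the next 95.5 CPM, and the meningeal fibroblast markers in KO mice, at 47.9 CPM above 23.4 CPM. Both values belong to KO mouse 2. The others were the oligodendrocyte precursor markers in KO mice (highest 130.4 CPM) and the endoplasmic reticulum chaperones in WT mice (highest 940.9 CPM).

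Among single genes, the highest WT mouse stood apart for Wdfy1 (5.68 log2 CPM), Sash3 (1.49), Xist (2.26) and Pdia4 (5.09), and the highest KO mouse for Grm2 (5.50). The lowest WT mouse stood apart for Dnajb1 (6.01 log2 CPM), Grm2 (5.04), Aqp4 (5.60) and Cox6a2 (2.69), and the lowest KO mouse for Gria3 (6.65) and Alas2 (2.40). No mouse stood apart for Atf4, Cort, Bex1 or Slc7a3.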

How the results depend on the processing

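The count of 4 called genes in metestrus moved to 2 with edgeR's quasi-likelihood test, 2 with voom without quality weights, 14 without a filter on low counts (11 lower in the KO), 2 with only the 9 metestrus mice in the fit, and 0 both with breeding as a covariate and within the Cnih3 x B6 breeding. DESeq2 called 3 genes, upper quartile factors and age as a covariate 4 each, and the fit without the 2 KO mice of least nuclear RNA 3. With each mouse left out the count ranged from 1 (without KO mouse 1) to 13 (without WT mouse 3), with 2 without WT mouse 2 or KO mouse 3. The same fits gave 0 genes for the difference of the genotype effect between metestrus and the other stages, and the 18 alternatives with such a fit held 221 to 3059 genes at an unadjusted p under 0.05. Of 1920 values of named genes under other settings, 1856 kept their direction and side of the threshold, 25 lost the threshold, 13 gained it and 26 changed sign, over 13 genes. The sign changed for Gria1 with edgeR (-0.0040), DESeq2 (-0.00141), voom without weights (-0.00161) and within the Cnih3 x B6 breeding (-0.0254), and for Prl with edgeR (-0.288), DESeq2 (-0.2842) and within that breeding (-1.412). With breeding as a covariate Gria2 was at 0.0149, Gria3 at 0.0333 and Gria4 at 0.118. Within the Cnih3 x B6 breeding Tek was at 0.112, Gria4 at 0.0435, Pgr at 0.0835, Cux2 at -0.0261 and Gpr17 at -0.385. Without the 2 KO mice of least nuclear RNA Csf1r was at -0.0219. With each mouse left out, Gria1 ranged from -0.0488 to 0.0936, Gria4 from -0.0455 to 0.0322, Grm2 from -0.317 to 0.0181, Gjb6 from -0.00556 to 0.316 and Mpped1 from -0.0118 to 0.156. The cause was not tested. No paired analysis was possible because the labels give no replicate number, and no prefix of the mouse names is shared between the KO and WT mice of metestrus.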
